A study of Homo sapiens with 6 samples.

Results

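The genes described here are the enzymes that carry glucose to lactate, the transporters that move both sugars and lactate across the membrane, and genes of the response to low oxygen. They were taken by name: RefSeq accessions of the deposited transcript entries were matched to gene symbols, and each gene was represented by its entry on a primary chromosome with the highest mean over all tables. All 39 genes sought were found among the 26852 genes of the series. They comprised 17 glycolytic enzymes, 2 pyruvate dehydrogenase kinases, 3 glucose transporters, 2 lactate transporters, 2 enzymes of fructose 2,6-bisphosphate, 11 targets of the hypoxia-inducible factor (HIF) outside glycolysis and 2 HIF alpha subunits. RNA was sequenced from U2OS 2-6-3 cells, a human osteosarcoma line with an integrated reporter array, in 6 libraries of 3 groups with 2 libraries each. The sample group was transiently transfected with plasmids for CIBN-TetR and PHR-YFP-VP16, a light-dependent activator system, together with mCherry-MCP, a marker of the reporter RNA. The mock group received TetR-RFP and YFP, and the untransfected group received nothing. Sample and mock cells were transfected with the same reagent, Roche Xtreme gene. Every group was lit overnight with white light and grown in medium with 1 g/l glucose, and no oxygen treatment is named. The 3 groups come from 1 cell line, the share of cells that took up plasmid is not given in the labels, and untransfected cells differed from both other groups in the reagent as well as in the plasmids. Transfected against untransfected cells and sample against mock cells are the comparisons the design allows.

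Glycolysis breaks glucose down to pyruvate, and lactate dehydrogenase reduces pyruvate to lactate, which leaves the cell through monocarboxylate transporters. HIF is a dimer of an alpha subunit and ARNT: with oxygen, EGLN prolyl hydroxylases mark the alpha subunit for destruction, and in low oxygen it accumulates as protein and binds DNA at a short core motif. Most glycolytic enzymes, SLC2A1, SLC16A3 and the pyruvate dehydrogenase kinase PDK1 are themselves well known HIF targets, so the glycolytic enzymes and the HIF targets outside glycolysis are not separate regulons.

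Promoter letters are shown for the 2 members with the largest rise and fall, HK2 and SLC2A12, and for the pair PFKFB3 and PFKFB4, which moved in opposite directions. Each window is the 250 bases before the RefSeq start of the gene (GRCh38.p14), written 5′ to 3′ on the strand of the gene. Capitals mark the HIF core motif, ACGTG or GCGTG, on either strand.
HK2, chr2:74833877-74834126, plus strand: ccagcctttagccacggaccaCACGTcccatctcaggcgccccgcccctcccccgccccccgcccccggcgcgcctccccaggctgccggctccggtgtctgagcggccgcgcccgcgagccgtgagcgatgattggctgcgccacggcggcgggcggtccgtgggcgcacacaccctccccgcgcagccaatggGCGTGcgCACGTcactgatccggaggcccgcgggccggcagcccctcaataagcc
SLC2A12, chr6:134052625-134052874, minus strand: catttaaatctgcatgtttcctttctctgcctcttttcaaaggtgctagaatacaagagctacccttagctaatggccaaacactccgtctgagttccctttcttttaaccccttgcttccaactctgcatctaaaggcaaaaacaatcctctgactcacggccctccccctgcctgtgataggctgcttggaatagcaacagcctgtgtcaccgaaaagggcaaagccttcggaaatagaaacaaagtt
PFKFB3, chr10:6202682-6202931, plus strand: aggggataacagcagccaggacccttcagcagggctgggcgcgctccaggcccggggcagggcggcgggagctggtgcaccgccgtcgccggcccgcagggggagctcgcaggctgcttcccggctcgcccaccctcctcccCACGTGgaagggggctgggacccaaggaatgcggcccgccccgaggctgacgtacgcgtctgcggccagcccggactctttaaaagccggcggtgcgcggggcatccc
PFKFB4, chr3:48556804-48557053, minus strand: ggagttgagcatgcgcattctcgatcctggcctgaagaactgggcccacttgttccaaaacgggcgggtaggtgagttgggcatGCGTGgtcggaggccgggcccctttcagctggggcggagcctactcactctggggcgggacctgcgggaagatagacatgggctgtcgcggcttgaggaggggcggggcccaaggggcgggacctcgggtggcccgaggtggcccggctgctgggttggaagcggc
The HK2 window held 3 matches, the PFKFB3 window 2 that overlap in the palindrome CACGTG, the PFKFB4 window 1 and the SLC2A12 window 0. The RefSeq start of HK2 lies 1472 bases from the start of its entry in the files, that of ALDOA 11189 bases and that of EGLN1 2757 bases. Among the 35 members scanned, 23 (65.7%) held the core motif at least once, against 43.2% of all 35116 windows of the same length. It was present in 10 of 17 windows of glycolytic enzymes (58.8%) and in 7 of 9 of HIF targets outside glycolysis (77.8%). CACGTG, which contains the core motif and counts on both strands, was present in 5 members' windows (14.3%) and in 6.34% of all windows. Members were counted with 1 window each, the nearest to their entry, and BNIP3L, NDRG1, SLC2A3 and SLC16A1 had none. The windows of all genes include several for some genes, whether expressed here or not, so these shares are not like for like. A match is a description of the letters and not a bound site.

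Counts recovered from the deposited means, summed over all transcript entries, gave the total reads of each library used here. These were 50105854 and 9579278 in sample cells, 54177551 and 44594507 in mock cells, and 53596406 and 51146190 in untransfected cells. The deeper library of each group is called a and the shallower b. Sample library b was the shallowest and stood apart from its partner in some genes, such as COL1A1, a bone collagen, with 14774 normalized counts against 6105 in sample library a. Where a call of the authors' deposited tables passed in limma-voom with all libraries but not without 1 of them, the value without that library stands beside it. Whether the replicates of a group came from separate cultures is not given in the labels, so the spread behind each p-value is that of these libraries and may be technical. Osteoblast lineage markers, summed, ranged over 28321 and 36642 normalized counts in sample cells, 27020 and 27973 in mock cells, and 40353 and 41080 in untransfected cells. This sum was lower in the transfected libraries, but single markers went both ways, and the part of these markers in the results was not tested. ALPL was higher in the transfected libraries, with 540 and 655 normalized counts in sample cells and 764 and 868 in mock cells. In untransfected cells it had 57.2 and 68.4. RUNX2 and SPARC were lower in the transfected libraries. RUNX2 had 93.1 and 132 normalized counts in sample cells, 66.7 and 64.0 in mock cells, and 379 and 414 in untransfected cells. The deposited log2 fold change of SPARC was -0.60 in sample and -0.60 in mock cells. Of 7 such markers tested, 1 rose and 2 fell in sample cells and 2 rose and 3 fell in mock cells in the authors' deposited tables (DESeq2). SPARC and COL1A1 made up most of this sum, while IBSP had no read and SP7 at most 0.65 normalized counts in any library. Blood cell markers summed to 21.9 and 12.4 normalized counts in sample cells, 19.9 and 23.2 in mock cells, and 26.0 and 13.5 in untransfected cells. The epithelial markers KRT8 and KRT18 were abundant, and CDH1 had between 37.1 and 63.1 normalized counts. Of 5 epithelial markers tested, 1 was higher, KRT18, and 2 were lower, CLDN4 and EPCAM, in each comparison with untransfected cells. CLDN4 had 136 and 148 normalized counts in sample cells, 123 and 105 in mock cells, and 1424 and 1492 in untransfected cells. In bulk RNA of this kind, fewer cells of a type and less RNA per cell cannot be told apart.

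More of the 17 glycolytic enzymes rose than fell in transfected cells. Other glycolytic and gluconeogenic enzymes, counted further below, fell more often than they rose. Their median deposited log2 fold change was -0.45 in sample and -0.34 in mock cells. Calls of HIF targets outside glycolysis went both ways in sample cells and were mostly lower in mock cells. The median deposited log2 fold changes of these HIF targets were nonetheless close, at -0.21 in sample and -0.25 in mock cells. Of these targets 0 passed in sample against mock cells, so a difference between both groups was not shown. In sample against untransfected cells, 8 of 17 glycolytic enzymes rose, 2 fell and 7 did not pass an adjusted p of 0.05 in the authors' deposited table (DESeq2). The same table held 2 HIF targets that rose, 2 that fell and 6 that did not pass, of 10 tested. In mock against untransfected cells, 11 of 17 glycolytic enzymes rose, 2 fell and 4 did not pass, and of the 10 HIF targets tested 1 rose, 6 fell and 3 did not pass. CA9, a carbonic anhydrase induced in hypoxia, was not tested: it had 1 and 0 reads in sample cells, 0 and 0 in mock cells, and 2 and 3 in untransfected cells, where a count of 0 allows up to 3 reads. These counts stand against a wide background: the authors' deposited tables called 37.3% of all genes tested in sample against untransfected cells (20.2% higher, 17.1% lower) and 50.9% in mock against untransfected cells (27.5% higher, 23.3% lower). Over all members the counts were 12 higher, 7 lower and 19 not passing in sample cells, and 17 higher, 13 lower and 8 not passing in mock cells, of 38 tested each. With limma-voom on the recovered counts 26 members passed in sample cells (15 higher, 11 lower) and 28 in mock cells (15 higher, 13 lower), where it called 50.9% and 59.2% of all genes. The 2 comparisons share the untransfected libraries and are not independent of each other.

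The median deposited log2 fold change of the 17 glycolytic enzymes was 0.22 in sample and 0.31 in mock cells, and that of the 10 HIF targets was -0.21 in sample and -0.25 in mock cells, each against untransfected cells. Over all genes tested the authors' deposited medians were -0.00 in both comparisons. Library by library, the median glycolytic enzyme lay above the untransfected mean by 0.18 and 0.28 log2 units in sample cells and by 0.21 and 0.34 in mock cells, with the untransfected libraries at -0.04 and 0.04. The median HIF target lay at -0.15 and -0.13 in sample cells, -0.23 and -0.32 in mock cells, and -0.00 and 0.00 in untransfected cells. The gap between both medians, which does not depend on how a library is scaled, was 0.33 and 0.41 in sample cells, 0.44 and 0.66 in mock cells, and -0.03 and 0.03 in untransfected cells. All 4 transfected libraries lay above both untransfected ones in this gap, which has no test because the genes were chosen with results known. Each gene is centred on the mean of both untransfected libraries, so their gaps mirror each other around 0 by construction.

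Scaling bears on these counts. With total reads as library size in place of median-of-ratios factors, the median of all genes shifted to -0.13 in sample and -0.15 in mock cells. Counted that way, with limma-voom on the recovered counts, 11 members rose and 11 fell in sample cells, and 9 rose and 13 fell in mock cells. Glycolytic enzymes then counted 6 higher and 2 lower in sample cells, and 5 higher and 2 lower in mock cells. Of all genes, the same scaling called 18.2% higher and 30.8% lower in sample cells, and 21.4% higher and 36.0% lower in mock cells. Set against limma-voom with median-of-ratios factors, PKM, LDHA, PDK1 and SLC2A1 no longer passed in sample cells. In mock cells GPI, PGAM1, PKM, LDHA, SLC2A1 and SLC16A3 no longer passed. TPI1 and PGK1, called in mock cells in the authors' deposited table, passed in limma-voom with neither scaling.

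**Figure D1:**
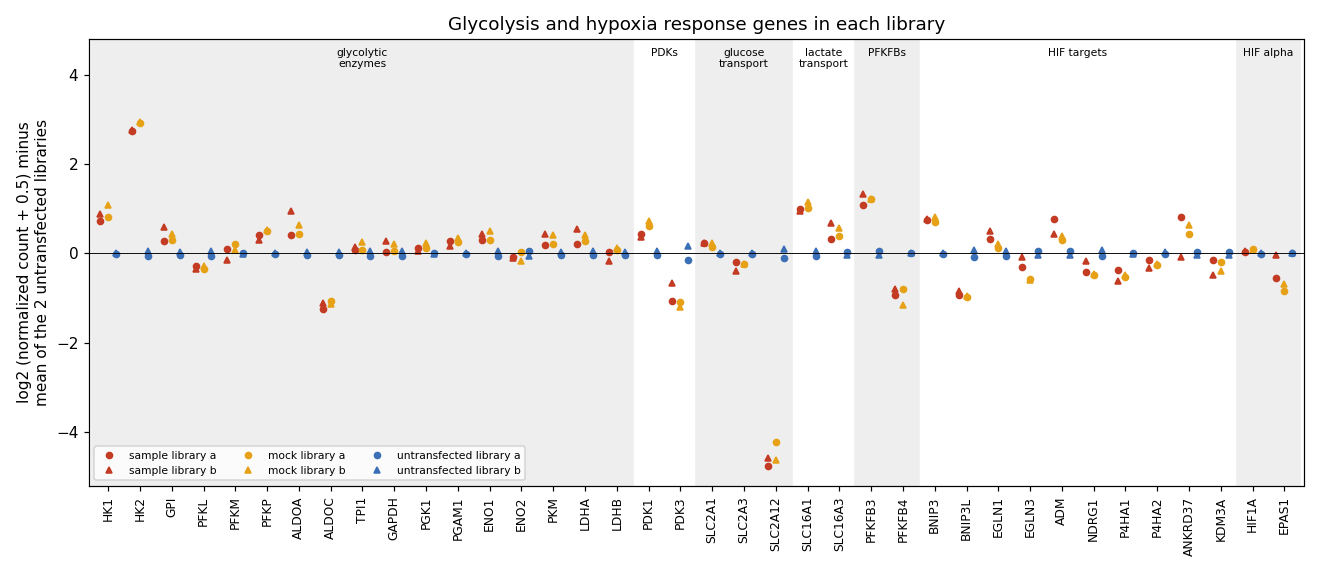
Each point is 1 library's log2 (normalized count + 0.5) of a member minus the mean of the 2 untransfected libraries, in the order of the members' roles, with sample libraries in red, mock in yellow and untransfected in blue. HK2 stands highest and SLC2A12 lowest, and in both the 4 transfected libraries lie together and away from the untransfected ones.

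**Figure D2:**
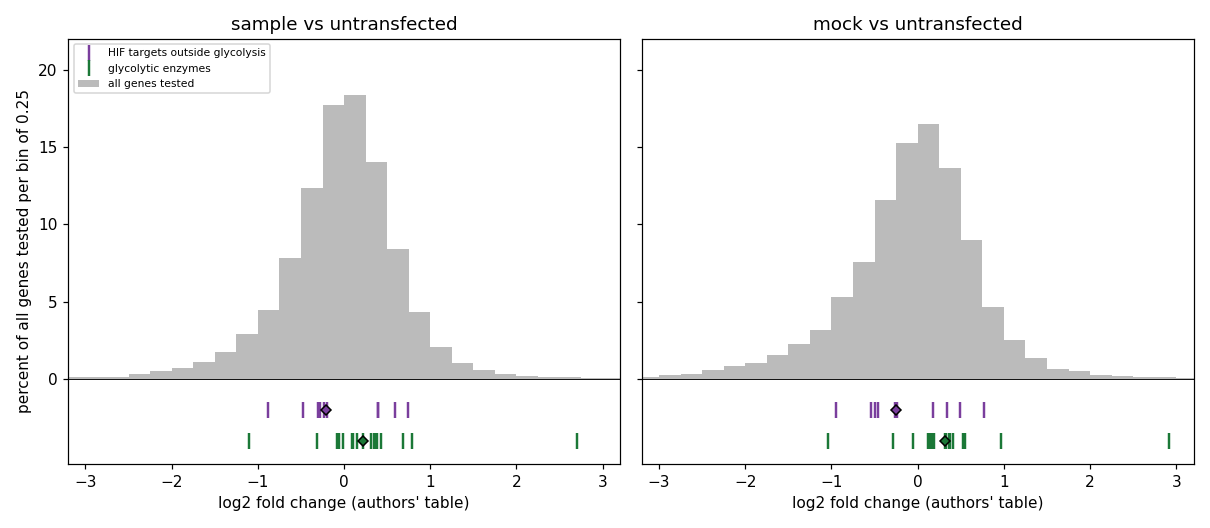
Grey bars give the percent of all genes tested per bin of 0.25 in the deposited log2 fold change against untransfected cells, with ticks below for single HIF targets outside glycolysis (purple) and glycolytic enzymes (green) and a diamond at each median. The glycolytic medians of 0.22 in sample and 0.31 in mock cells lie to the right of the HIF target medians of -0.21 and -0.25, while both sets of ticks stay within the range of all genes.

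Hexokinases phosphorylate glucose on entry, and 1 of them, HK2, had the largest rise of the members. HK2 (chr2:74832655-74893354, hg38), the inducible hexokinase bound to mitochondria, had 2614 and 2668 normalized counts in sample cells, 2937 and 2997 in mock cells, and 377 and 406 in untransfected cells. No transfected library came near an untransfected one. The log2 fold change was 2.71 (SE 0.13, adjusted p = 7.93e-93, DESeq2) in sample cells and 2.92 (SE 0.09, adjusted p = 1.7e-206) in mock cells in the authors' deposited tables. HK1 (chr10:69270000-69401882, hg38), the widely expressed hexokinase, had 6896 and 7687 normalized counts in sample cells, 7323 and 8818 in mock cells, and 4117 and 4223 in untransfected cells. Its groups did not overlap with the untransfected libraries, and it rose by 0.79 (SE 0.11, adjusted p = 1.63e-12, DESeq2) in sample and 0.96 (SE 0.09, adjusted p = 1.17e-26) in mock cells, as deposited by the authors.

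The share of HK2 in the reads of both hexokinases showed that they did not rise alike. HK2 took 27.5% and 25.8% of these reads in sample cells, 28.6% and 25.4% in mock cells, and 8.39% and 8.76% in untransfected cells. The exact 95% binomial intervals, which cover counting error only, ran from 24.1% to 29.4% over the 4 transfected libraries and from 7.74% to 9.48% over the untransfected ones. Per kilobase of transcript the share of HK2 was lower, at 20.3% and 18.9% in sample cells, 21.2% and 18.6% in mock cells, and 5.78% and 6.05% in untransfected cells. HK1 was the more abundant RNA per length in all 6 libraries.

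Phosphofructokinase, the committing step of glycolysis, shifted between its isoforms. PFKP, the platelet-type subunit, had 4043 and 3702 normalized counts in sample cells, 4279 and 4357 in mock cells, and 3004 and 3062 in untransfected cells. It rose by 0.35 (SE 0.11, adjusted p = 0.00577, DESeq2) in sample and 0.52 (SE 0.07, adjusted p = 3.45e-12) in mock cells in the authors' deposited tables. PFKL, the liver-type subunit, had 2640 and 2503 normalized counts in sample cells, 2529 and 2640 in mock cells, and 3094 and 3310 in untransfected cells. It fell, with deposited log2 fold changes of -0.31 (SE 0.11, adjusted p = 0.0207, DESeq2) in sample and -0.29 (SE 0.08, adjusted p = 0.000781) in mock cells, both from the authors. Without untransfected library b it did not pass in limma-voom, at -0.25 (adjusted p = 0.0911) in sample and -0.26 (adjusted p = 0.0635) in mock cells. PFKM, the muscle-type subunit, did not pass in either comparison, at -0.01 in sample and 0.15 in mock cells in the authors' deposited tables. PFKP thus took 42.6% and 43.2% of phosphofructokinase reads in sample cells, 43.6% and 44.7% in mock cells, and 34.4% and 34.1% in untransfected cells.

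Aldolase, which splits fructose 1,6-bisphosphate, changed in opposite directions in its isoforms. ALDOA, the main aldolase of most cells, had 9601 and 13851 normalized counts in sample cells, 9668 and 11186 in mock cells, and 6985 and 7386 in untransfected cells. Sample library b was the highest, and both untransfected libraries lay below all others. The rise was 0.68 (SE 0.16, adjusted p = 7.39e-05, DESeq2) in sample and 0.55 (SE 0.08, adjusted p = 5.67e-11) in mock cells in the authors' deposited tables. In limma-voom ALDOA did not pass in mock cells without mock library b, at 0.43 (adjusted p = 0.0863), or without untransfected library a, at 0.49 (adjusted p = 0.0613). ALDOC (chr17:28573115-28576933, hg38), the brain-type aldolase and a known HIF target, had 110 and 119 normalized counts in sample cells, 124 and 118 in mock cells, and 253 and 264 in untransfected cells. It fell by 1.11 (SE 0.27, adjusted p = 0.000179, DESeq2) in sample and fell by 1.04 (SE 0.20, adjusted p = 4.7e-07) in mock cells, as deposited by the authors. ALDOC took 1.13% and 0.855% of aldolase reads in sample cells, 1.27% and 1.04% in mock cells, and 3.50% and 3.46% in untransfected cells.

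The upper pathway's isomerase GPI, which converts glucose 6-phosphate to fructose 6-phosphate, had 7853 and 9816 normalized counts in sample cells, 7991 and 8709 in mock cells, and 6354 and 6612 in untransfected cells. It rose by 0.43 (adjusted p = 0.00247, DESeq2) in sample and 0.38 (adjusted p = 6.48e-07) in mock cells in the authors' deposited tables. Without untransfected library a GPI did not pass in limma-voom, at 0.39 (adjusted p = 0.0533) in sample and 0.33 (adjusted p = 0.074) in mock cells. In mock cells it also stood at 0.30 (adjusted p = 0.0791) without mock library b and at 0.20 (adjusted p = 0.0732) with total reads as library size.

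ENO1 and PKM, of the lower pathway, rose in both comparisons. ENO1, the main enolase, had 95761 and 104779 normalized counts in sample cells, 95381 and 108998 in mock cells, and 74622 and 80402 in untransfected cells. Its transfected and untransfected libraries did not overlap, and it rose by 0.37 (SE 0.10, adjusted p = 0.000945, DESeq2) in sample and 0.41 (SE 0.08, adjusted p = 2.37e-07) in mock cells as deposited by the authors. Without untransfected library a ENO1 did not pass in sample cells in limma-voom, at 0.32 (adjusted p = 0.0662). PKM, the pyruvate kinase of proliferating cells and muscle, had 52540 and 62838 normalized counts in sample cells, 53688 and 61176 in mock cells, and 45159 and 47591 in untransfected cells. It rose by 0.31 (adjusted p = 0.0194, DESeq2) in sample and 0.32 (adjusted p = 4.45e-05) in mock cells in the authors' deposited tables. The PKM call was lost in both comparisons of limma-voom with total reads as library size, at 0.14 (adjusted p = 0.152) in sample and 0.14 (adjusted p = 0.12) in mock cells. It was also lost in both without untransfected library a, at 0.28 (adjusted p = 0.141) in sample and 0.27 (adjusted p = 0.139) in mock cells, and without untransfected library b, at 0.35 (adjusted p = 0.0714) in sample and 0.35 (adjusted p = 0.0684) in mock cells. Without sample library b PKM stood at 0.18 (adjusted p = 0.158) in sample cells, and without mock library b at 0.21 (adjusted p = 0.154) in mock cells.

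Triosephosphate isomerase TPI1, phosphoglycerate kinase PGK1 and phosphoglycerate mutase PGAM1 passed the test in mock cells and not in sample cells. The deposited log2 fold changes of the authors were 0.18 (adjusted p = 0.0469, DESeq2) for TPI1, 0.19 (adjusted p = 0.0114) for PGK1 and 0.31 (adjusted p = 0.0155) for PGAM1 in mock cells. With total reads as library size in limma-voom, TPI1 turned to -0.0060, PGK1 stood at 0.01 (adjusted p = 0.881) and PGAM1 at 0.14 (adjusted p = 0.218). With median-of-ratios sizes and all libraries TPI1 and PGK1 did not pass in limma-voom either, at 0.16 (adjusted p = 0.124) and 0.17 (adjusted p = 0.0568). PGAM1 did pass there, but not without mock library b, at 0.26 (adjusted p = 0.09), untransfected library a, at 0.28 (adjusted p = 0.107), or untransfected library b, at 0.31 (adjusted p = 0.0786). In sample cells the authors' deposited tables gave them 0.10, 0.09 and 0.22, with adjusted p-values of 0.443, 0.482 and 0.289 (DESeq2). Whether these genes differed between both comparisons was not shown, since none passed in sample against mock cells. GAPDH, the dehydrogenase often used as a constant reference, had 71702 and 85213 normalized counts in sample cells, 72538 and 81507 in mock cells, and 67534 and 73088 in untransfected cells. Its mock and untransfected libraries overlapped, as did its sample and untransfected libraries. It did not pass, at 0.15 in both comparisons of the authors' deposited tables (adjusted p = 0.302 in sample and 0.0817 in mock cells, DESeq2). The neuronal enolase ENO2 did not pass either, at -0.09 in sample and -0.05 in mock cells in the authors' deposited tables.

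Lactate dehydrogenase closes the pathway. LDHA, the subunit that favours lactate formation and a known HIF target, had 11463 and 14350 normalized counts in sample cells, 11876 and 13192 in mock cells, and 9573 and 10162 in untransfected cells. It rose by 0.38 (SE 0.13, adjusted p = 0.00953, DESeq2) in sample and 0.36 (SE 0.07, adjusted p = 4.51e-06) in mock cells in the authors' deposited tables. In limma-voom LDHA did not pass with total reads as library size, at 0.20 (adjusted p = 0.106) in sample and 0.18 (adjusted p = 0.1) in mock cells, or without untransfected library a, at 0.33 (adjusted p = 0.102) in sample and 0.30 (adjusted p = 0.111) in mock cells. Without sample library b it stood at 0.22 (adjusted p = 0.0586) in sample cells, and without mock library b at 0.27 (adjusted p = 0.117) in mock cells. LDHB, the heart-type subunit, did not pass, at -0.06 in sample and 0.12 in mock cells as the authors deposited it. LDHB took 71.6% and 63.5% of lactate dehydrogenase reads in sample cells, 71.4% and 70.0% in mock cells, and 74.1% and 74.0% in untransfected cells. Sample library b lay lowest and apart from the other 5 libraries, and sample library a was close to the mock libraries.

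Several of these abundant enzymes have processed pseudogenes or close paralogs, among them GAPDH, PGK1, TPI1, PGAM1, ENO1, LDHB, ALDOA and PKM. How reads shared between copies were counted is not given in the sources used here, so their values are uncertain to that extent.

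**Figure D3:**
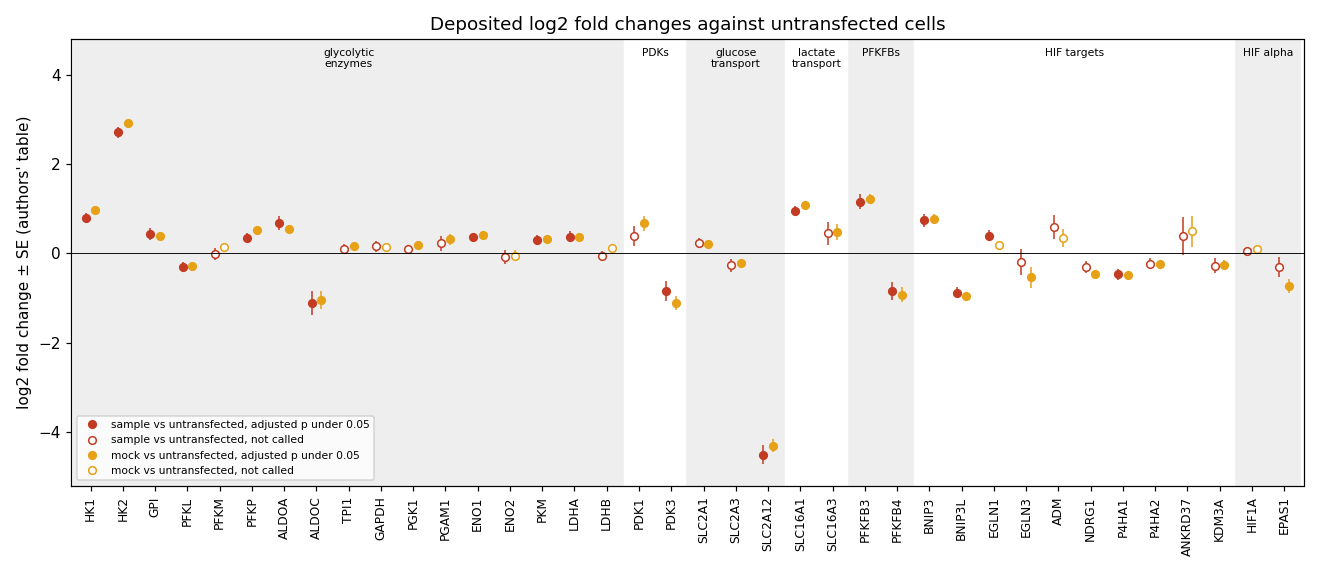
Points are the authors' deposited log2 fold changes against untransfected cells with bars of 1 SE, sample in red and mock in yellow, filled where the adjusted p was under 0.05 and open where it was not. HK2 stands at 2.71 in sample and 2.92 in mock cells and SLC2A12 at -4.51 in sample and -4.30 in mock cells, and the other members plotted lie within 1.25 of 0.

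The bifunctional enzymes that set fructose 2,6-bisphosphate, a potent allosteric activator of phosphofructokinase, moved in opposite directions. PFKFB3 (chr10:6202877-6235545, hg38), with high kinase activity, had 913 and 1087 normalized counts in sample cells, 1010 and 1004 in mock cells, and 446 and 420 in untransfected cells. PFKFB4 (chr3:48517684-48556923, hg38) had 239 and 259 in sample cells, 260 and 204 in mock cells, and 455 and 454 in untransfected cells. For both genes every transfected library lay on 1 side of both untransfected libraries. PFKFB3 rose by 1.16 (SE 0.17, adjusted p = 7.2e-11, DESeq2) in sample and 1.22 (SE 0.11, adjusted p = 2.83e-25) in mock cells in the authors' deposited tables. PFKFB4 fell by 0.84 (SE 0.21, adjusted p = 0.000243, DESeq2) in sample and fell by 0.93 (SE 0.16, adjusted p = 5.66e-08) in mock cells in the same tables of the authors. PFKFB4 took 20.8% and 19.3% of the reads of the pair in sample cells, 20.4% and 16.9% in mock cells, and 50.5% and 52.0% in untransfected cells. Both genes are known hypoxia-responsive HIF targets, and both promoter windows shown above hold the core motif.

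Pyruvate dehydrogenase kinases, which keep pyruvate out of the mitochondrial oxidation, also split. PDK3 had 268 and 358 normalized counts in sample cells, 266 and 245 in mock cells, and 505 and 629 in untransfected cells. It fell by 0.85 (SE 0.22, adjusted p = 0.000617, DESeq2) in sample and fell by 1.11 (SE 0.16, adjusted p = 1e-11) in mock cells in the authors' deposited tables. Without sample library a PDK3 did not pass in sample cells in limma-voom, at -0.64 (adjusted p = 0.0552). PDK1 had 322 and 305 normalized counts in sample cells, 363 and 393 in mock cells, and 230 and 246 in untransfected cells. Its entry with the most reads is a non-coding isoform by its accession type, which can share reads with the coding ones. It rose by 0.67 (SE 0.16, adjusted p = 8.6e-05, DESeq2) in mock cells, while in sample cells the authors' deposited value of 0.38 (SE 0.22) had an adjusted p of 0.171. In limma-voom PDK1 did pass in sample cells, at 0.42 (adjusted p = 0.0227), but not with total reads as library size, at 0.28 (adjusted p = 0.0997).

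Among glucose transporters the widest change of any member was a fall. SLC2A12 (chr6:133987581-134052651, hg38), which codes for GLUT12, had 65.7 and 74.1 normalized counts in sample cells, 95.7 and 71.4 in mock cells, and 1660 and 1921 in untransfected cells. The 4 transfected libraries lay far below the untransfected ones and overlapped each other. The log2 fold change was -4.51 (SE 0.21, adjusted p = 7.43e-102, DESeq2) in sample and -4.30 (SE 0.15, adjusted p = 7.8e-182) in mock cells in the authors' deposited tables, whose values are shrunk toward 0. Without shrinkage, limma-voom on the recovered counts gave -4.71 (SE 0.23, adjusted p = 1.45e-06) in sample and -4.40 (SE 0.18, adjusted p = 2.98e-07) in mock cells. SLC2A12 took 1.22% and 1.42% of the reads of these 3 transporters in sample cells, 1.86% and 1.34% in mock cells, and 25.4% and 28.1% in untransfected cells.

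SLC2A1, the basal glucose transporter GLUT1, had 4027 and 4039 normalized counts in sample cells, 3809 and 4039 in mock cells, and 3409 and 3443 in untransfected cells. It rose by 0.21 (SE 0.07, adjusted p = 0.0103, DESeq2) in mock cells in the authors' deposited table, and in sample cells stood at 0.23 (SE 0.10, adjusted p = 0.0624). In limma-voom SLC2A1 did pass in sample cells, at 0.23 (adjusted p = 0.0207), but not with total reads as library size, at 0.09 (adjusted p = 0.261). The mock call was lost in limma-voom with total reads as library size, at 0.03 (adjusted p = 0.657), and without mock library b, at 0.15 (adjusted p = 0.146), untransfected library a, at 0.19 (adjusted p = 0.157), or untransfected library b, at 0.20 (adjusted p = 0.13). SLC2A3, the high-affinity transporter GLUT3, had 1277 and 1120 normalized counts in sample cells, 1239 and 1238 in mock cells, and 1454 and 1472 in untransfected cells. It fell by 0.22 (SE 0.09, adjusted p = 0.0321, DESeq2) in mock cells, and in sample cells stood at -0.27 (SE 0.14, adjusted p = 0.112) in the authors' deposited table. In limma-voom SLC2A3 did pass in sample cells, at -0.25 (adjusted p = 0.0389), with a value of -0.20 without sample library b. SLC2A3 did not pass in mock cells in limma-voom without mock library a, at -0.24 (adjusted p = 0.1), mock library b, at -0.24 (adjusted p = 0.0891), untransfected library a, at -0.25 (adjusted p = 0.108), or untransfected library b, at -0.23 (adjusted p = 0.129). SLC2A3 is nearly identical to SLC2A14 in sequence, and reads of the pair may have been split.

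Of the lactate transporters, SLC16A1 rose in both comparisons and SLC16A3 in mock cells. SLC16A1, the monocarboxylate transporter MCT1, had 10269 and 10006 normalized counts in sample cells, 10473 and 11464 in mock cells, and 5012 and 5382 in untransfected cells. Every transfected library was clear of both untransfected ones, with deposited rises by the authors of 0.95 (SE 0.10, adjusted p = 5.16e-20, DESeq2) in sample and 1.09 (SE 0.07, adjusted p = 2.12e-46) in mock cells. SLC16A3, the lactate exporter MCT4, had 219 and 284 normalized counts in sample cells, 230 and 261 in mock cells, and 181 and 172 in untransfected cells. It rose by 0.48 (SE 0.19, adjusted p = 0.023, DESeq2) in mock cells, and stood at 0.44 (SE 0.25, adjusted p = 0.166) in sample cells in the authors' deposited table. In mock cells SLC16A3 did not pass in limma-voom with total reads as library size, at 0.31 (adjusted p = 0.0979), or without mock library b, at 0.38 (adjusted p = 0.111), untransfected library a, at 0.50 (adjusted p = 0.0739), or untransfected library b, at 0.43 (adjusted p = 0.104). MCT4 took 2.09% and 2.76% of the reads of the pair in sample cells, 2.15% and 2.22% in mock cells, and 3.48% and 3.10% in untransfected cells.

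**Figure D4:**
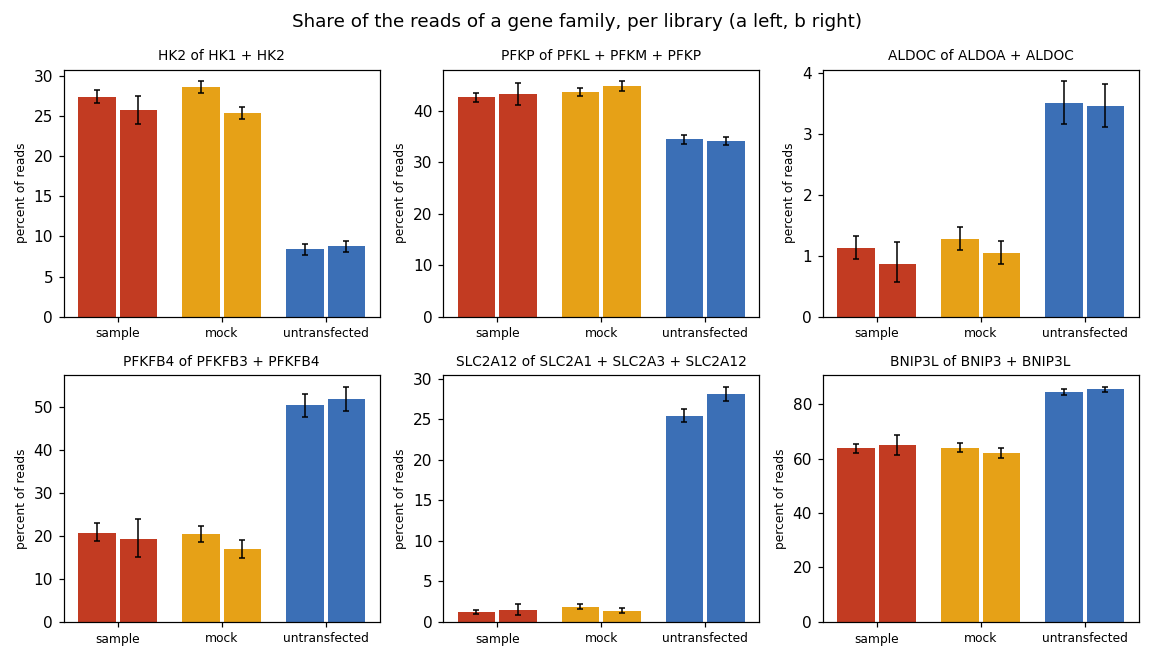
Bars give the percent of a gene family's reads taken by 1 member in each library (a left, b right), with exact 95% binomial intervals for counting error, for sample (red), mock (yellow) and untransfected cells (blue). HK2 and PFKP took larger shares in the transfected libraries, with HK2 at 25.4% to 28.6% against 8.39% and 8.76% in untransfected cells, whereas ALDOC, PFKFB4, SLC2A12 and BNIP3L took smaller ones.

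Of the HIF alpha subunits, HIF1A did not pass in either comparison. It had 6512 and 6596 normalized counts in sample cells, 6770 and 6701 in mock cells, and 6319 and 6381 in untransfected cells. The authors' deposited log2 fold changes were 0.04 (adjusted p = 0.772, DESeq2) in sample and 0.10 (adjusted p = 0.192) in mock cells. EPAS1, which codes for HIF-2 alpha, had 279 and 399 normalized counts in sample cells, 226 and 253 in mock cells, and 409 and 408 in untransfected cells. It fell by 0.74 (SE 0.16, adjusted p = 1.01e-05, DESeq2) in mock cells in the authors' deposited table, and in sample cells stood at -0.30 (SE 0.23, adjusted p = 0.318). In limma-voom on the recovered counts the value in sample cells was -0.43 (adjusted p = 0.0383), and without sample library a it was -0.03 (adjusted p = 0.924). It passed without sample library b and did not pass without any other single library. HIF activity is set at the level of protein, which was not measured.

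The prolyl hydroxylases that mark HIF alpha, and that HIF induces in turn, gave mixed values. EGLN1 (PHD2) had 2226 and 2528 normalized counts in sample cells, 1926 and 2063 in mock cells, and 1719 and 1852 in untransfected cells. It rose by 0.40 (SE 0.13, adjusted p = 0.00665, DESeq2) in sample cells and stood at 0.18 (SE 0.09, adjusted p = 0.0861) in mock cells in the authors' deposited tables. Without untransfected library a EGLN1 did not pass in sample cells in limma-voom, at 0.33 (adjusted p = 0.0622). EGLN3 (PHD3), among the most hypoxia-inducible genes in many cells, had 112 and 132 normalized counts in sample cells, 92.9 and 91.8 in mock cells, and 143 and 135 in untransfected cells. It fell by 0.54 (SE 0.24, adjusted p = 0.0461, DESeq2) in mock cells, while the authors' deposited value in sample cells was -0.20 (adjusted p = 0.657). In mock cells EGLN3 did not pass in limma-voom without mock library a, at -0.59 (adjusted p = 0.0611), mock library b, at -0.58 (adjusted p = 0.0522), or untransfected library a, at -0.54 (adjusted p = 0.0688).

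The mitophagy receptors BNIP3 and BNIP3L, both HIF targets, moved apart. BNIP3 had 925 and 931 normalized counts in sample cells, 890 and 971 in mock cells, and 543 and 556 in untransfected cells. BNIP3L had 1626 and 1738 in sample cells, 1580 and 1597 in mock cells, and 2948 and 3273 in untransfected cells. In both genes the transfected libraries were all on 1 side of the untransfected ones. BNIP3 rose by 0.74 (SE 0.15, adjusted p = 1.09e-05, DESeq2) in sample and 0.77 (SE 0.11, adjusted p = 1.4e-10) in mock cells in the authors' deposited tables. BNIP3L fell by 0.88 (SE 0.12, adjusted p = 1.7e-11, DESeq2) in sample and fell by 0.95 (SE 0.09, adjusted p = 8.87e-27) in mock cells in the same tables of the authors. BNIP3L took 63.7% and 65.1% of the reads of the pair in sample cells, 64.0% and 62.2% in mock cells, and 84.4% and 85.5% in untransfected cells. BNIP3 has pseudogene copies, so its counts carry that uncertainty.

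Collagen prolyl hydroxylase subunits, which HIF induces for matrix synthesis, were lower. P4HA1 had 2499 and 2125 normalized counts in sample cells, 2240 and 2316 in mock cells, and 3261 and 3227 in untransfected cells. It fell by 0.47 (SE 0.13, adjusted p = 0.0008, DESeq2) in sample and fell by 0.49 (SE 0.08, adjusted p = 1.22e-09) in mock cells in the authors' deposited tables. P4HA2 fell by 0.24 (adjusted p = 0.0042, DESeq2) in mock cells and stood at -0.23 (adjusted p = 0.119) in sample cells in the tables the authors deposited. In limma-voom P4HA2 did pass in sample cells, at -0.21 (adjusted p = 0.0493), with a value of -0.16 without sample library b. The mock call of P4HA2 was lost in limma-voom without mock library a, at -0.25 (adjusted p = 0.0697), untransfected library a, at -0.28 (adjusted p = 0.0568), or untransfected library b, at -0.23 (adjusted p = 0.102). NDRG1, a stress-responsive gene strongly induced by hypoxia, had 1468 and 1729 normalized counts in sample cells, 1393 and 1411 in mock cells, and 1863 and 2050 in untransfected cells. It fell by 0.46 (SE 0.09, adjusted p = 1.82e-06, DESeq2) in mock cells, and the authors' deposited value in sample cells was -0.30 (adjusted p = 0.0736). In limma-voom NDRG1 did pass in sample cells, at -0.34 (adjusted p = 0.0151), with a value of -0.17 without sample library a. KDM3A, a histone H3 lysine demethylase, fell by 0.26 (adjusted p = 0.0312, DESeq2) in mock cells and stood at -0.27 (adjusted p = 0.182) in sample cells in the authors' deposited tables. The mock call of KDM3A was lost in limma-voom without mock library b, at -0.19 (adjusted p = 0.234), untransfected library a, at -0.26 (adjusted p = 0.18), or untransfected library b, at -0.31 (adjusted p = 0.108).

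The peptide hormone gene ADM and ANKRD37, a small ankyrin repeat gene, passed in neither comparison. ADM had 241 and 189 normalized counts in sample cells, 174 and 183 in mock cells, and 145 and 136 in untransfected cells, so its transfected libraries all lay higher. The authors' deposited log2 fold changes of ADM were 0.59 (adjusted p = 0.0695, DESeq2) in sample and 0.35 (adjusted p = 0.157) in mock cells. In limma-voom on the recovered counts ADM was higher in sample cells by 0.70 (adjusted p = 0.0049), and without sample library a the value was 0.44 (adjusted p = 0.191). ANKRD37 had 69.6 and 37.1 normalized counts in sample cells, 53.2 and 61.2 in mock cells, and 40.3 and 38.5 in untransfected cells, and its sample libraries lay on both sides of the untransfected ones.

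Normalized counts of the members separated the transfected from the untransfected libraries without overlap in 34 of 38 tested members in sample cells and 36 of 38 in mock cells. Over all genes tested this was so in 73.8% and 79.6%. Of the calls in the authors' deposited tables, 12 of 19 in sample cells held under every alternative, each left-out library included: HK1, HK2, PFKP, ALDOA, ALDOC, SLC2A12, SLC16A1, PFKFB3, PFKFB4, BNIP3, BNIP3L and P4HA1. In mock cells 16 of 30 did: HK1, HK2, PFKP, ALDOC, ENO1, PDK1, PDK3, SLC2A12, SLC16A1, PFKFB3, PFKFB4, BNIP3, BNIP3L, NDRG1, P4HA1 and EPAS1. With all libraries limma-voom called 28 members in mock cells, and 18 without mock library b and 17 without untransfected library a. Of the glycolytic enzymes it called 10 in sample cells and 11 in mock cells with all libraries, and 6 in each without untransfected library a.

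No member passed the test between sample and mock cells. In the authors' deposited table (DESeq2) 0 of 38 members passed, against a background of 0.0785% of all genes tested (0.0196% higher, 0.0589% lower), and 0 had an unadjusted p under 0.05, against 1.96% of all genes. The median deposited value was 0.00 over all members, -0.03 over glycolytic enzymes and 0.04 over HIF targets outside glycolysis. limma-voom on the recovered counts called 0 as well, against 0.0134% of all genes, and gave 3 members an unadjusted p under 0.05: HK2, EGLN1 and ADM, where 4.38% of all genes had one. The limma-voom log2 difference ran between -0.31 in SLC2A12 and 0.37 in ADM, and lay within 0.2 of 0 in 32 of 38 members. The 95% interval of that difference stayed within 0.5 log2 units of 0 in 30 members, and the interval reached beyond this in ALDOC, PDK1, PDK3, SLC2A12, EGLN3, ADM, ANKRD37 and EPAS1. Sample and mock libraries did not overlap in 13 of 38 members, beside 34.3% of all genes tested. HK2, PFKP, LDHB, PDK1, SLC16A1 and HIF1A were lower in both sample libraries than in both mock libraries. PDK3, BNIP3L, EGLN1, EGLN3, ADM, NDRG1 and EPAS1 were higher in both.

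EPAS1 showed the widest deposited difference between sample and mock cells, 0.22 (SE 0.12, adjusted p = 0.9999, DESeq2) in the authors' table. Its limma-voom difference of 0.35 had a 95% interval reaching between -0.02 and 0.72. Without sample library a, limma-voom passed 2 members, ALDOA at 0.41 (adjusted p = 0.0326) and EPAS1 at 0.75 (adjusted p = 0.0491). That fit rests on the shallow sample library b alone, which is assumed to vary like the other groups.

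In reads per kilobase of transcript, scaled to the total reads of a library (RPKM), the levels of the members spanned several orders of magnitude. Of the 39 members, 38 had a matched transcript length, PGAM1 being the exception. GAPDH stood at 976 and 1152 in sample cells, 1007 and 1051 in mock cells, and 1034 and 1069 in untransfected cells. ENO1 stood at 1042 and 1133 in sample cells, 1059 and 1124 in mock cells, and 914 and 941 in untransfected cells. GAPDH and ENO1 were close in transfected cells. Their libraries overlapped in sample cells, ENO1 was the higher in mock cells, and GAPDH was the higher in untransfected cells. PKM and LDHB followed, each between 411 and 586 in all libraries, and TPI1 came after them between 289 and 309.

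Membrane and regulatory members lay far lower than these most abundant enzymes on the same scale per kilobase, but not lower than all enzymes. SLC16A1 and HIF1A lay above PFKL, for 1, which stood between 21.8 and 31.2 in all libraries. SLC16A1 stood at 59.9 and 58.0 in sample cells, 62.3 and 63.4 in mock cells, and 32.9 and 33.8 in untransfected cells, and SLC2A1 lay between 25.7 and 28.0 in all libraries. SLC2A12 stood at 0.375 and 0.421 in sample cells, 0.558 and 0.386 in mock cells, and 10.7 and 11.8 in untransfected cells. In untransfected cells it thus matched SLC2A3, at 10.7 and 10.3, whereas in sample cells SLC2A3 was at 8.32 and 7.25 and in mock cells at 8.24 and 7.65. HIF1A, between 45.6 and 51.0 in all libraries, was higher per length than EPAS1, between 1.14 and 2.27.

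Genes of the same pathways outside the members were counted in lists that were fixed with earlier results known. Their counts stand against the same background, in which the authors' deposited tables called 37.3% of all genes tested in sample cells (20.2% higher, 17.1% lower) and 50.9% in mock cells (27.5% higher, 23.3% lower), and nothing particular to a list is read from them. Of other glycolytic and gluconeogenic enzymes, 1 rose and 3 fell of 11 tested in sample cells, and 3 rose and 5 fell of 13 in mock cells, in the authors' deposited tables (DESeq2). HKDC1, a further hexokinase, had 272 and 325 normalized counts in sample cells, 291 and 229 in mock cells, and 81.2 and 93.4 in untransfected cells. It rose by 1.63 (adjusted p = 7.92e-09, DESeq2) in sample and 1.53 (adjusted p = 1.01e-11) in mock cells in the authors' deposited tables. The muscle enolase ENO3 fell by 1.24 and the mitochondrial PCK2, of gluconeogenesis, fell by 0.88 in mock cells in the authors' deposited table.

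Of other genes of glucose and lactate transport, 0 rose and 3 fell of 10 tested in sample cells, and 2 rose and 6 fell of 10 in mock cells. SLC2A10 (GLUT10) had 225 and 272 normalized counts in sample cells, 216 and 180 in mock cells, and 519 and 537 in untransfected cells, and SLC2A10, SLC2A4 and SLC2A11 fell in mock cells, at -1.36, -1.04 and -0.69 in the authors' deposited table. Of the pyruvate dehydrogenase complex and its regulators, 3 rose and 3 fell of 12 in sample cells, and 4 rose and 4 fell of 12 in mock cells. PDK2, another kinase of the complex, had 248 and 313 normalized counts in sample cells, 182 and 201 in mock cells, and 515 and 549 in untransfected cells. It fell by 0.92 (adjusted p = 5.95e-05, DESeq2) in sample and fell by 1.43 (adjusted p = 2.29e-19) in mock cells in the authors' deposited tables.

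In the pentose phosphate pathway 1 gene rose and 1 fell of 7 in sample cells, and 3 rose and 3 fell of 7 in mock cells. RPIA, ribose 5-phosphate isomerase, had 2419 and 1816 normalized counts in sample cells, 2532 and 2392 in mock cells, and 998 and 994 in untransfected cells, with a deposited rise by the authors of 1.07 in sample and 1.31 in mock cells. Of glycogen genes, 2 rose and 4 fell of 10 in sample cells, and 3 rose and 4 fell of 10 in mock cells. UGP2, which makes UDP-glucose, had 2806 and 2693 normalized counts in sample cells, 2569 and 2544 in mock cells, and 6742 and 6969 in untransfected cells, and it fell by 1.30 in sample and fell by 1.40 in mock cells in the authors' deposited tables.

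Of the regulators of HIF, 1 rose and 2 fell of 11 tested in sample cells, and 3 rose and 4 fell of 11 in mock cells, again by the authors' DESeq2. ARNT, the partner subunit of HIF alpha, had 670 and 708 normalized counts in sample cells, 579 and 577 in mock cells, and 998 and 999 in untransfected cells. It fell by 0.53 (adjusted p = 0.00169, DESeq2) in sample and fell by 0.76 (adjusted p = 2.26e-11) in mock cells in the authors' deposited tables. Of 28 further HIF targets tested, 4 rose and 7 fell in sample cells, and 5 rose and 10 fell in mock cells. DDIT4, an inhibitor of mTOR signalling, had 713 and 852 normalized counts in sample cells, 671 and 683 in mock cells, and 2327 and 2551 in untransfected cells. DDIT4 fell by 1.63 in sample and fell by 1.82 in mock cells in the authors' deposited tables. In sample against mock cells 0 genes of any of these lists passed in the authors' deposited table (DESeq2).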

How the data were processed

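RNA sequencing of 6 libraries in 3 groups was deposited as 3 tables, 1 for each pair of groups, in which the authors fitted 4 libraries with DESeq2. The submitters' processing notes name Bowtie, STAR and the authors' DESeq2, and hg38 as genome build. Their versions, the use of strand and the counting step are not given in the sources used. Per the file headers, each of 40029 transcript entries has the authors' mean signal of normalized counts, a log2 fold change with its SE, a Wald score, and raw and adjusted p-values. From the values, the deposited log2 fold changes were shrunk toward 0, and most strongly for sample against mock cells.

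Whole counts of all 6 libraries were solved from the 3 deposited mean signals by lattice reduction, for 30527 of 30527 entries with reads at a relative tolerance of 1e-14. The procedure was tested on simulated data. Replicate numbers are not tied to these counts. Counts were divided by median-of-ratios size factors to give normalized counts, and shares within gene families used raw counts. Symbols were matched for 39722 entries (99.2%).

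Members and lists were chosen with earlier results of these data known. The main test is the authors' deposited DESeq2 result at an adjusted p under 0.05. limma-voom (limma 3.58.1, R 4.3.3, Benjamini-Hochberg adjustment, mean normalized count of at least 10) on recovered counts was an alternative, beside other thresholds, filters, centring, library sizes, summed entries and left-out libraries. Settings of library size, summed entries and left-out libraries were changed within limma-voom. edgeR was not run. All 39 members could be named, and of each other list up to 3 genes called in mock against untransfected cells with the largest change and a mean of at least 50. Some genes that this rule names are not reported here. Of the further HIF targets, NDUFA4L2 and FUT11 were not matched, and PFKFB2 stood in that list and in the enzyme list. Promoter windows came from RefSeq (GRCh38.p14), and lengths from GENCODE 29 transcripts matched by RefSeq accession. Python 3.11.15, numpy 2.4.6, pandas 2.3.3 and matplotlib 3.10.9 were used.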

Additional observations from a re-analysis of the deposited data

How the results depend on the processing

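No paired analysis was possible because the deposited tables do not tie values to replicate numbers. The threshold, filters and centring were changed on the authors' deposited results. Total reads, summed entries and left-out libraries were changed within limma-voom on the recovered counts, so against the deposited values they change the test as well, and limma-voom with all libraries and median-of-ratios sizes is their like-for-like value. A group left with 1 library was assumed to vary like the others. Such fits have less power for every gene. Their share of all genes called was not counted, so lost calls are not read as particular to the members. Of 38 members tested, 19 were called in sample and 30 in mock against untransfected cells in the authors' deposited tables, and 26 in sample and 28 in mock cells in limma-voom. The alternatives that kept all libraries called 17 to 28 in sample cells and 22 to 30 in mock cells, and leaving out 1 library called 16 to 24 in sample cells and 17 to 30 in mock cells, with 18 without mock library b and 17 without untransfected library a. In sample against mock cells the count of 0 became 2 without sample library a. A threshold of 0.01 called 17 in sample and 22 in mock cells. TPI1 in mock cells turned to -0.0060 with total reads as library size, which put the median of all genes at -0.15 there. The glycolytic median in mock cells, 0.31 as deposited and 0.30 in limma-voom, was 0.14 with total reads and 0.21 to 0.34 with a library left out. Of glycolytic enzymes in mock cells, 13 were called in the deposited table and 11 in limma-voom, which lost TPI1 and PGK1, and within limma-voom 7 were called with total reads, 6 without mock library b or without untransfected library a, and 8 without untransfected library b. In sample cells 10 were called in the deposited table and in limma-voom, and 6 without untransfected library a. The median of HIF targets outside glycolysis, -0.22 in sample and -0.27 in mock cells in limma-voom, was -0.36 in sample and -0.43 in mock cells with total reads, and -0.23 to -0.12 in sample and -0.32 to -0.23 in mock cells with a library left out. In sample cells limma-voom called 7 of these targets in place of 4, with either library size and with summed entries. In sample against mock cells the median of these targets, 0.04, was 0.086 in limma-voom, 0.10 with total reads and 0.056 to 0.13 with a library left out. Where no value shows the cause of a shift, the cause was not tested. Depth limits the low members most: sample library b held 18 reads of SLC2A12 and 9 of ANKRD37.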
